A study of Mus musculus with 6 samples.

Results

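Cell cycle and proliferation genes were followed in hearts from 3 Tmbim1 knockout (Tmbim1 KO) mice and 3 Flox wild type mice, with 1 Affymetrix array per mouse. All 6 mice were on a C57BL/6 background, are described as 8 weeks old, and had carried an aortic band for 2 weeks, a constriction that raises the pressure load on the left ventricle. The members are 43 genes named by symbol, taken as 9 genes of S phase and DNA synthesis, 12 cyclins and cyclin-dependent kinases (CDKs), 18 genes of mitosis and 4 CDK inhibitors. Of these, 42 were measured, of 18029 genes with a probe set on the array that carries their symbol alone. Ccnb1 was not analysed here. The labels call the control animals Flox and wild type. They name no Cre driver and do not say in which cells Tmbim1 is deleted. No unoperated heart was analysed here, so every difference is one between genotypes under load. Tissue was taken from the heart as a whole organ as far as the labels say, though atrial markers differed between the arrays, as given below. In such mixed tissue, fewer cells of a type and less RNA per cell cannot be told apart.

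Cells enter division when D-type cyclins with CDK4 and CDK6 inactivate the retinoblastoma proteins and free E2F factors. E2F factors switch on the enzymes that copy DNA, and cyclin A and B with CDK1 then drive mitosis. CDK inhibitors such as p21 hold this sequence back. Adult cardiomyocytes have largely left the cell cycle and enlarge under pressure load, while fibroblasts, endothelial cells and macrophages of the heart can still divide.

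Each value is a log2 signal of a probe set, a group of probes read together, so a difference of 1 is a doubling. For a gene with several probe sets the brightest one stands for the gene and is called its main probe set. Tmbim1 itself was at 8.58, 8.38 and 8.33 in the wild type hearts and at 7.53, 7.49 and 7.56 in the knockout hearts, so the groups did not overlap (difference -0.91, SE 0.10, limma adjusted p = 0.00579). Without knockout array 2 its adjusted p was 0.0512. All 13 cardiomyocyte markers checked had a mean log2 signal of 10.13 or more, so the arrays carry heart muscle RNA. Knockout array 1 stood apart in atrial markers, with a mean over 8 genes of 9.72 against 5.36 to 5.77 on the other 5 arrays. Myl7, Myl4 and Sln were at 12.86, 12.98 and 12.17 there. On the other 5 arrays they were at 3.45 to 3.90, 4.29 to 4.87 and 2.42 to 2.77, so the knockout group was not uniform in atrial RNA. Nppa, also in the atrial list, was at 12.67, 12.67 and 11.85 in wild type hearts and at 13.78, 13.63 and 13.36 in knockout hearts. It rose past the threshold of 0.05 (difference 1.19, limma adjusted p = 0.0496). The share of atrial tissue in each sample was not tested. Wild type array 3 lay farthest out on the first principal component.

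Cell cycle genes as a class were not shown to change between the genotypes. At the main probe set, 0 of 42 members passed an adjusted p of 0.05 in limma, where 0.549% of all genes did. An unadjusted p under 0.05 was seen in 5 members (11.9%), against 11.5% of all genes. Of these Cdkn1a, Birc5 and Aurka were higher and Cdkn1c and Cenpf lower in the knockout, where 5.19% of all genes were higher and 6.33% lower. The groups of arrays did not overlap in 6 members (14.3%), against 16.7% of all genes. Knockout arrays lay wholly above in Cdkn1a, Rrm1, Tyms and Aurka (7.34% of all genes) and wholly below in Cdkn1c and Cenpf (9.38% of all genes). The overall shares lie near the background and say nothing particular about the members. The clearest single result was Cdkn1a, which encodes the CDK inhibitor p21 and stood higher in every knockout heart at both of its probe sets. Differences leaned positive, with 31 of 42 above 0 (73.8%) against 49.4% of all genes, and a median difference of 0.09 against -0.002 for all genes. That lean changed most without wild type array 3: 23 of 42 were then positive (54.8%, against 49.2% of all genes) and the median was 0.02. Without any other single array, 28 to 33 were positive. Wild type array 3 was the lowest array for 25 of the 42, so leaving it out had to lower their differences. Without both that array and knockout array 1 no positive lean remained, with 19 of 42 positive (45.2%, against 49.5% of all genes) and a median of -0.02. Of the 32 members with more than 1 probe set, 18 had a probe set of the opposite sign to the main one, and 0 of those probe sets passed. They were Aurkb, Bub1, Ccnd1, Ccnd3, Ccne1, Cdc25c, Cdca3, Cdkn1b, Cenpe, Cenpf, E2f1, Mcm2, Mcm3, Mcm6, Prc1, Rrm1, Rrm2 and Tpx2. The opposed values lay between -0.19 (Prc1) and 0.26 (Ccne1).

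**Figure D1:**
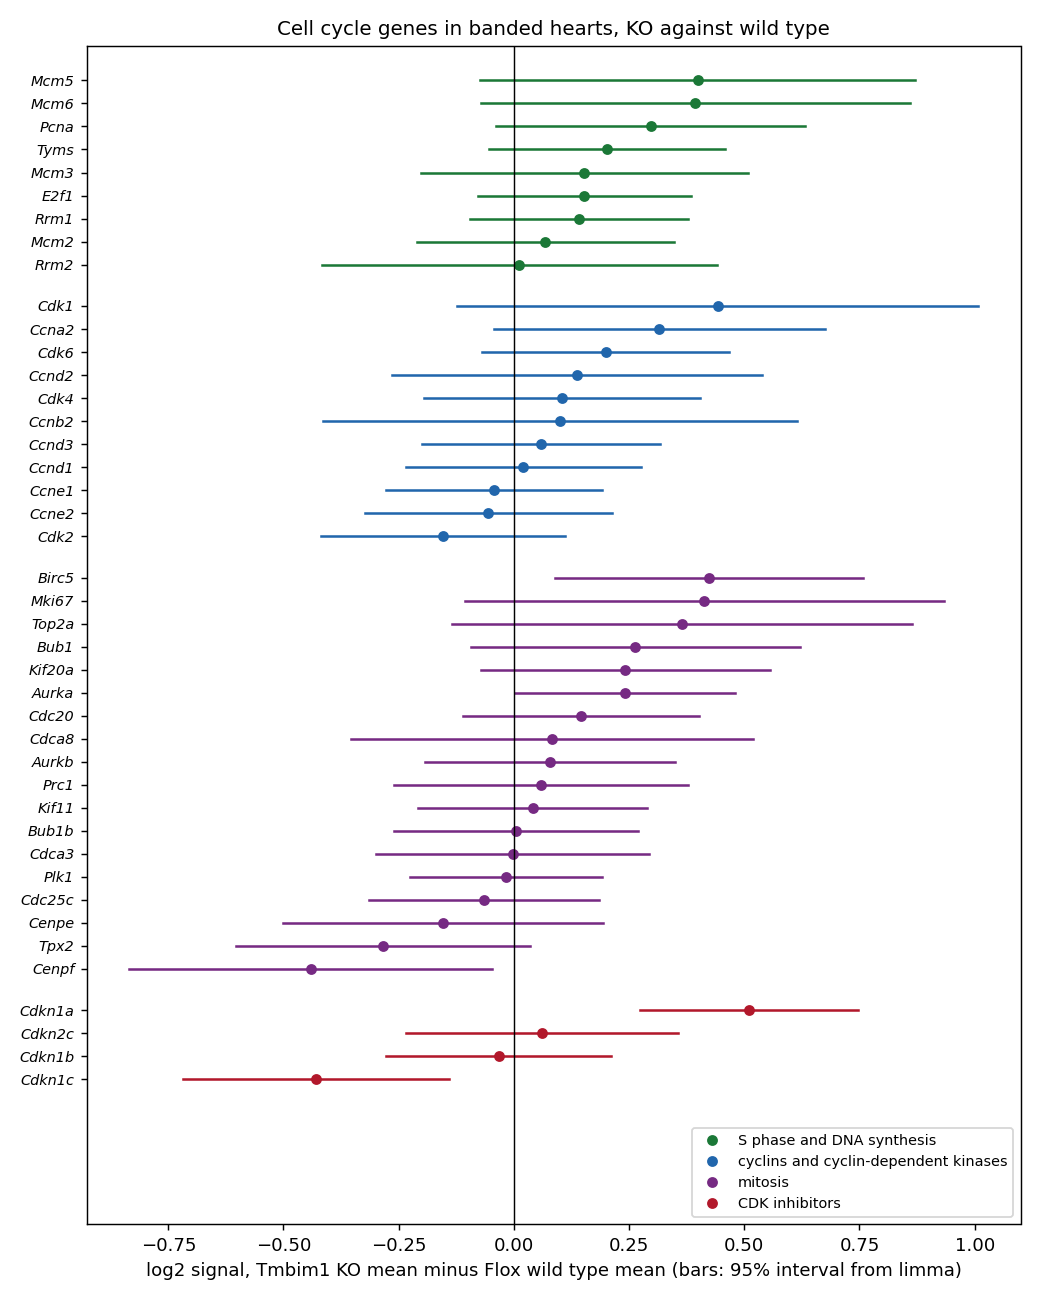
Difference in log2 signal between the mean of 3 Tmbim1 KO arrays and the mean of 3 Flox wild type arrays for the main probe set of each of the 42 measured members, by role. Bars are 95% intervals from the limma fit, not adjusted for the number of genes. The intervals of Cdkn1a (0.27 to 0.75), Birc5 and Aurka lie above 0, those of Cdkn1c and Cenpf below, and the other 37 include 0.

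Among the CDK inhibitors, Cdkn1a and Cdkn1c stood on opposite sides. Cdkn1a, a direct target of p53 that binds cyclin-CDK complexes and PCNA, was at 7.69, 7.46 and 7.74 in wild type hearts and at 8.14, 8.07 and 8.21 in knockout hearts. All knockout values lay above all wild type values, with an SD of 0.15 in the wild type group and 0.07 in the knockout group. The difference was 0.51 (SE 0.11, 95% interval 0.27 to 0.75, 1.42-fold) and did not pass at this main probe set (limma adjusted p = 0.0950). A second probe set of nearly the same brightness rose by 0.66 (SE 0.11, 1.58-fold, limma adjusted p = 0.0481), from 7.37, 7.43 and 7.69 to 8.24, 8.03 and 8.20. It was the 1 probe set past the threshold among the 102 of the members, where 0.422% of all probe sets passed. Without wild type array 3 it stayed past the threshold, and without any other single array it did not (adjusted p between 0.122 and 0.204), with the difference between 0.60 and 0.73. It also missed the threshold after a second quantile normalization (adjusted p = 0.0558) and without both knockout array 1 and wild type array 3 (0.164), and over all it lost the call in 8 of 14 alternatives. The mean of the 2 probe sets gave 0.59 (limma adjusted p = 0.0403).

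Cdkn1c encodes p57, an imprinted inhibitor of the same family that is strongly expressed in embryonic tissues. It was at 6.26, 6.32 and 6.54 in wild type hearts and at 5.81, 5.83 and 6.19 in knockout hearts, so the knockout values were all lower, knockout array 3 only just. Its difference of -0.43 (95% interval -0.72 to -0.14) did not pass (limma adjusted p = 0.241), and it stayed negative in all 16 alternative settings, between -0.55 and -0.28. Cdkn1b, which encodes p27, the inhibitor that keeps resting cells out of the cycle, was at 7.49, 7.69 and 7.34 against 7.43, 7.49 and 7.51. The groups overlapped, and its interval of -0.28 to 0.21 leaves room for a difference of either sign. Cdkn2c encodes p18, which blocks CDK4 and CDK6. It was at 6.86, 6.99 and 6.67 against 6.98, 7.08 and 6.66, again with overlap, and the difference was 0.06.

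**Figure D2:**
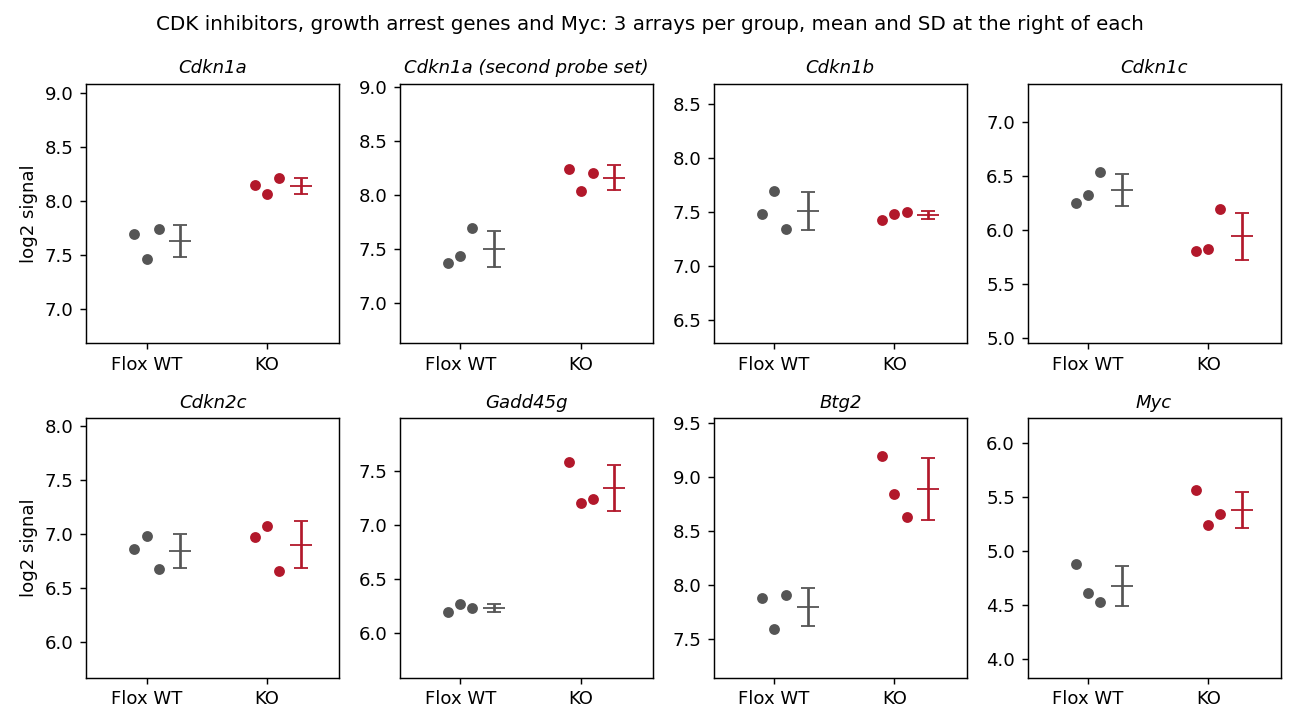
Log2 signal on each of 6 arrays for the 4 CDK inhibitors, with both probe sets of Cdkn1a, and for 3 growth regulators outside the members, Gadd45g, Btg2 and Myc. Points are arrays, and the cross bar and whiskers are the mean and SD of 3 arrays. Every panel spans 2.4 log2 units, and the knockout points lie wholly above the wild type points for Cdkn1a, Gadd45g, Btg2 and Myc and wholly below for Cdkn1c.

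The D-type cyclins, which start the cycle in answer to growth signals, had small differences at their main probe sets, and none passed. Ccnd2 was at 10.23, 10.16 and 9.49 in wild type hearts and at 10.23, 10.07 and 9.99 in knockout hearts. Only wild type array 3 was low, and the other 5 arrays lay within 9.99 to 10.23. Ccnd1 was at 8.77, 9.05 and 8.67 against 8.82, 8.84 and 8.89. Ccnd3 had a mean of 6.98 ± 0.034 (SD, n = 3) against 7.04 ± 0.21 (SD, n = 3). In both genes the groups overlapped, and the differences were 0.02 and 0.06. The dimmest of the 3 probe sets of Ccnd1 was at 6.86, 6.66 and 6.95 against 7.10, 7.33 and 7.50, a difference of 0.49 without overlap that did not pass (limma adjusted p = 0.173). The third was at -0.04.

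The CDK partners and later cyclins gave no call either. Cdk4 and Cdk6, which the D-type cyclins activate, were at 0.10 and 0.20, and Cdk2, the partner of cyclins E and A, was at -0.15. The E-type cyclins Ccne1 and Ccne2, which act at the entry to S phase, were at -0.04 and -0.06. Ccna2, needed in S phase and at the entry to mitosis, was at 5.43, 5.29 and 4.97 in wild type hearts and at 5.71, 5.71 and 5.22 in knockout hearts. Knockout arrays 1 and 2 stood above all wild type arrays and knockout array 3 among them, so the difference of 0.32 did not pass (limma adjusted p = 0.550). A dimmer probe set of Ccna2 gave 0.37 (adjusted p = 0.359). Ccnb2, a mitotic cyclin, was at 0.10 with an interval of -0.41 to 0.61. Cdk1, the kinase that drives mitosis, had the largest difference of this group at 0.44 (interval -0.12 to 1.01), and it was 0.15 without wild type array 3 and 0.05 without that array and knockout array 1. In the same order Ccna2 was at 0.18 and 0.10. Without wild type array 3, Cdk6 was at 0.11 and Cdk4 at 0.04, and Ccnd2, Ccnd1 and Ccnb2 turned negative at -0.10, -0.06 and -0.11.

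Genes of S phase and DNA synthesis had a median difference of 0.15 and a range of 0.01 to 0.40 at the main probe set, and 0 of 9 passed in either direction. All 9 differences were positive with every array in, and 6 of 9 without wild type array 3, where Mcm2, Mcm3 and Rrm2 were at -0.06, -0.03 and -0.20. Over the mean of the probe sets of each gene the median was 0.06 and Mcm2 was at -0.02. Mcm2, Mcm3, Mcm5 and Mcm6 encode subunits of the helicase that opens DNA for copying, and were at 0.07, 0.15, 0.40 and 0.39. Pcna, the sliding clamp of DNA polymerase, was at 8.63, 9.19 and 8.71 in wild type hearts and at 9.07, 9.31 and 9.04 in knockout hearts. Wild type array 2 lay within the knockout range, and the difference of 0.30 did not pass (limma adjusted p = 0.544). Rrm1 and Rrm2 encode the subunits of ribonucleotide reductase, which makes the building blocks of DNA, and were at 0.14 and 0.01. Tyms, the enzyme of thymidylate synthesis, was at 0.20 and E2f1, a transcription factor that turns on S phase genes, at 0.15. The groups did not overlap for Rrm1 and Tyms, by small margins, and 7.34% of all genes had all knockout arrays above all wild type arrays. Wild type array 3 was the lowest array for 8 of these 9 genes, and without it the group median was 0.08. The dimmer probe sets of Mcm5 were at 0.01 and 0.0006.

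Genes of mitosis ran in both directions, 12 positive and 6 negative, with a median of 0.07 that was 0.006 without wild type array 3 and -0.036 without both that array and knockout array 1. Of the 18, 0 passed, and 11 had a signal below the median of all probe sets, where RMA compresses differences. Birc5 encodes survivin, a subunit of the chromosomal passenger complex. It was at 3.33, 3.67 and 3.25 in wild type hearts and at 3.67, 4.12 and 3.73 in knockout hearts. Wild type array 2 and knockout array 1 met at 3.67 while the others were apart, and the difference was 0.42 (SE 0.15, limma adjusted p = 0.327). Aurka, a kinase of the spindle poles, was at 3.52, 3.63 and 3.37 against 3.87, 3.66 and 3.71, a difference of 0.24 with no overlap (limma adjusted p = 0.467). Without wild type array 3 it was 0.17, and 0.11 without knockout array 1 as well.

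Cenpf and Tpx2 went the other way. Cenpf, a kinetochore protein, was at 4.48, 4.63 and 4.59 in wild type hearts and at 4.47, 4.23 and 3.67 in knockout hearts. The groups were next to each other at knockout array 1, and knockout array 3 was far below the rest, so the difference of -0.44 (limma adjusted p = 0.404) had a wide interval of -0.83 to -0.05. Its dimmer probe sets were at -0.24 and 0.05. Tpx2, which activates Aurora A on the spindle, was at 4.70, 4.63 and 5.12 against 4.46, 4.71 and 4.43, a difference of -0.28 (limma adjusted p = 0.540) with overlap. A second probe set of Tpx2 was at -0.30 without overlap (adjusted p = 0.331), and 2 dimmer ones were at 0.13 and 0.08. The main probe set was at -0.13 without wild type array 3.

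The remaining genes of mitosis lay between -0.15 and 0.41. Mki67, whose protein Ki-67 is a common mark of dividing cells, was at 0.41 (interval -0.11 to 0.93), and Top2a, which untangles DNA before cells divide, at 0.37 (interval -0.13 to 0.86). Bub1, a spindle checkpoint kinase, and Kif20a, a kinesin of cell separation, were at 0.26 and 0.24, and Cdc20, an activator of the anaphase-promoting complex, at 0.15. Cdca8 and Aurkb, further parts of the chromosomal passenger complex, were both at 0.08. Signals of Bub1, Kif20a and Aurkb were dim, at percentiles 18.5, 21.7 and 15.1 of all probe sets, so their differences are poorly measured. Prc1 and Kif11, which organise spindle microtubules, were at 0.06 and 0.04, and the checkpoint gene Bub1b was at 0.01. Cdca3 (-0.003), the mitotic kinase gene Plk1 (-0.02), the phosphatase gene Cdc25c (-0.06) and the kinetochore motor gene Cenpe (-0.15) lay at or below 0. Without wild type array 3, Bub1 was at 0.14 and Cdc20 at 0.04, and Cdca8, Prc1 and Kif11 turned negative at -0.18, -0.06 and -0.05. The dimmer probe sets of Bub1 and Prc1 were at -0.11 and -0.19.

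Several members varied widely within the wild type group, and did so on the same array. Wild type array 3 was the lowest of the 6 arrays for 25 of 42 members (59.5%), against 21.2% of all genes, and for 10 of the 18 genes of mitosis. The 5 members with the widest range over the arrays were Mki67, Cdk1, Mcm5, Mcm6 and Top2a. Mki67 was at 5.39, 5.50 and 4.52 in wild type hearts and at 5.46, 5.82 and 5.38 in knockout hearts. Cdk1 was at 5.28, 5.78 and 4.64 against 5.86, 5.85 and 5.33. Mcm6 was at 5.95, 6.31 and 5.39 against 6.12, 6.54 and 6.18. In each of these, wild type array 3 lay apart at the bottom, and wild type arrays 1 and 2 lay near or among the knockout values. Mcm5 repeated this with 4.81, 5.17 and 4.26 against 4.99, 5.43 and 5.01, and Top2a with 5.43, 5.46 and 4.94 against 5.78, 6.04 and 5.11, where knockout array 3 was second lowest. Without wild type array 3 the differences of the 5 genes were 0.10, 0.15, 0.15, 0.15 and 0.20 in the order named first.

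**Figure D3:**
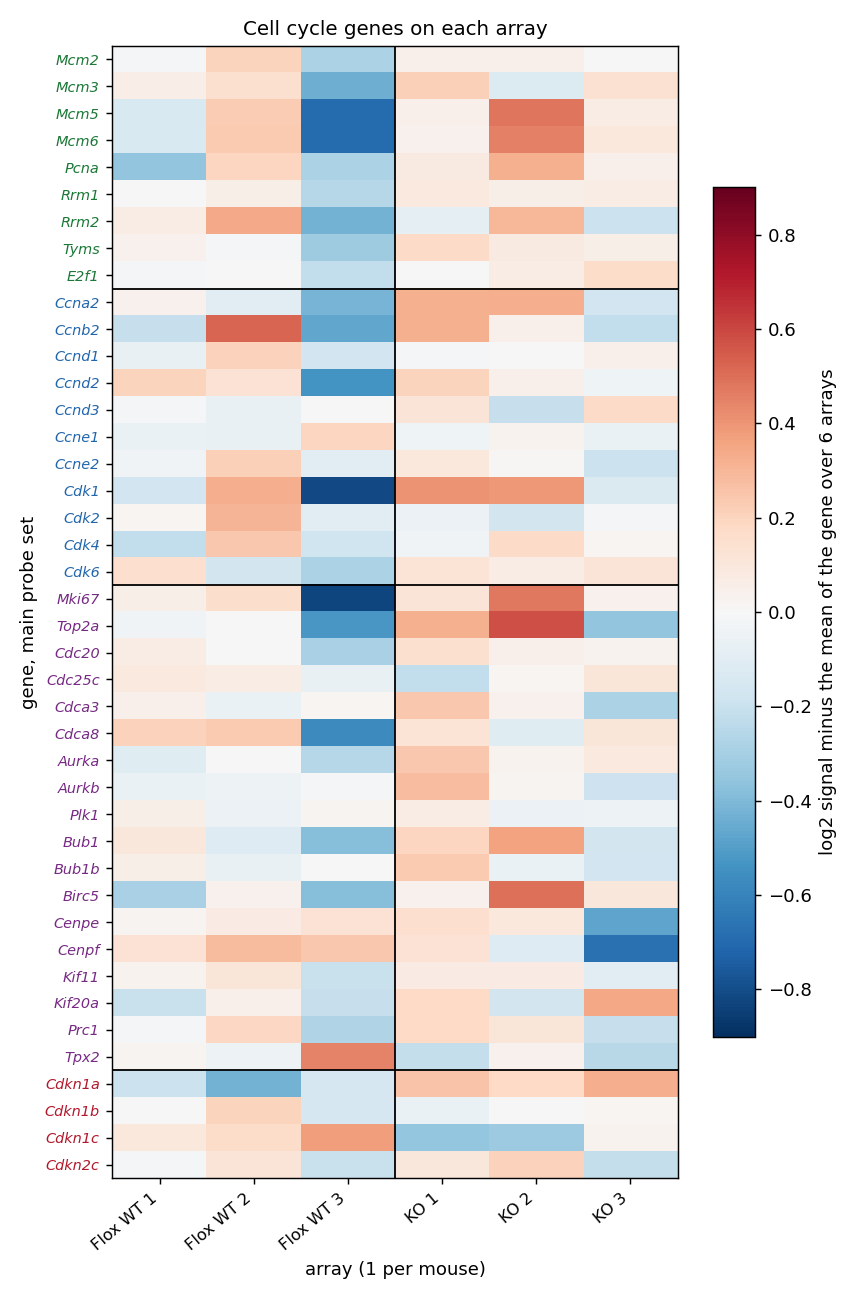
Log2 signal of the main probe set of each measured member on each array, minus the mean of that gene over the 6 arrays (colour scale in log2 units, from -0.9 to 0.9). Gene names are coloured by role as in the plot of differences. The column of wild type array 3 is low for most S phase genes and for Cdk1, Mki67, Top2a and Cdca8, while Tpx2 and Cdkn1c are highest there.

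Mki67, Cdk1, Mcm5, Mcm6 and Top2a belong to the class that E2F, NF-Y and the DREAM complex are known to bind. Their upstream sequences are shown because these 5 had the widest range over the arrays. Each is the 250 bases before the annotated start, 5′ to 3′ on the strand of the gene, from RefSeq on GRCm38.p6. Capitals mark matches on either strand to 3 motifs, the CHR element TTTGAA, the NF-Y box CCAAT, and the E2F forms TTTCCCGC, TTTCGCGC, TTTGCCGC and TTTGGCGC.
Mki67 (chr7:135716380-135716629, minus strand): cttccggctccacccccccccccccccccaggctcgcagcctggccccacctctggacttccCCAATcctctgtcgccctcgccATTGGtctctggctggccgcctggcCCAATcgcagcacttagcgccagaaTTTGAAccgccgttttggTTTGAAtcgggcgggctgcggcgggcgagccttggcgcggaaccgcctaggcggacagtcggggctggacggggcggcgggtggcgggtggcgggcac
Cdk1 (chr10:69352913-69353162, minus strand): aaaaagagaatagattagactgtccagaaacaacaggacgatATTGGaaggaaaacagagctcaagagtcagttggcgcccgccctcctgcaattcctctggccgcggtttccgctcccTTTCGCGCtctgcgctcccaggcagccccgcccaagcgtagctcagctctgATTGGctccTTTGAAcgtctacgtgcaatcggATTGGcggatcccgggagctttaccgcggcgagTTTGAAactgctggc
Mcm5 (chr8:75109259-75109508, plus strand): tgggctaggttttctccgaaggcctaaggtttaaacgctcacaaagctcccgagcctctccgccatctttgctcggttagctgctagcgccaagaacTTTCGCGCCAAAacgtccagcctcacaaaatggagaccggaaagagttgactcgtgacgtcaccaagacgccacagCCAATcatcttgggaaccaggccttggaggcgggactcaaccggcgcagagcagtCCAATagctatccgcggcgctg
Mcm6 (chr1:128359706-128359955, minus strand): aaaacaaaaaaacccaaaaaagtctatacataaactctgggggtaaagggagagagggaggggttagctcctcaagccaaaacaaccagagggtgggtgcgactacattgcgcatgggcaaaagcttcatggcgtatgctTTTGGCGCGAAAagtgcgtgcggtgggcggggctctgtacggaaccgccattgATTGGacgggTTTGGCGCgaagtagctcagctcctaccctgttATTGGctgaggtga
Top2a (chr11:99024190-99024439, minus strand): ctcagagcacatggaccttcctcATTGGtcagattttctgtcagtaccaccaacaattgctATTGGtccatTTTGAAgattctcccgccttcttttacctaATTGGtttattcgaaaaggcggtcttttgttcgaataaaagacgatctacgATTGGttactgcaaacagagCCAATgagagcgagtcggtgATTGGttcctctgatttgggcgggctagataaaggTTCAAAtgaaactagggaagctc

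Matches in these 5 windows were counted by motif. Mki67, Cdk1 and Top2a each held 2 CHR matches, with 3, 3 and 6 CCAAT matches. Mcm5 and Mcm6 held 0 CHR and 2 CCAAT matches each, with 2 and 3 E2F matches. In both, 1 E2F match on each strand overlapped by 4 bases, which reads as 1 longer capital run. Cdk1 held 1 E2F match. The pattern of the 5 did not extend to their groups, since the helicase gene Mcm2 held 1 CHR and 0 E2F matches, Mcm3 held 0 of both, and 5 of 15 windows of mitosis genes held CHR. A match is a string of letters and not evidence of binding.

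Over the 33 measured members with an entry in the promoter table, 37 upstream windows were searched. CCAAT was found in 70.3% of them, against 33.9% of 32851 windows of the same length from all genes. An E2F form was found in 10.8%, against 1.86%, and CHR in 21.6%, against 16.0%. Of the 15 windows of mitosis genes, 14 held CCAAT and 5 held CHR together with CCAAT (33.3%, against 5.55% of all windows). The 5 windows of CDK inhibitors held 0 CHR and 0 E2F matches.

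Cdkn1a, the member with a probe set past the threshold, has 2 annotated starts, and the 250 bases before each held 0 matches to the 3 motifs, so they are printed without capitals.
Cdkn1a, first start (chr17:29090729-29090978, plus strand): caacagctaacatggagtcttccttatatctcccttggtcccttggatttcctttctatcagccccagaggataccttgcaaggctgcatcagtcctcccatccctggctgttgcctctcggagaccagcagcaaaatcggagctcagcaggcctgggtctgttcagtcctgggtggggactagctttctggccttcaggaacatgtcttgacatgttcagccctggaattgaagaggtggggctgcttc
Cdkn1a, second start (chr17:29093519-29093768, plus strand): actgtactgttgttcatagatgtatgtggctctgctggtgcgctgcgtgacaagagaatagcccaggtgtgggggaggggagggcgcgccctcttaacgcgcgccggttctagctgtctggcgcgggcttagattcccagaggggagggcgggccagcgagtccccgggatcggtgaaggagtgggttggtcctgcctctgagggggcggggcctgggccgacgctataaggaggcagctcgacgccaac

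Some lists of cell type markers were low on wild type array 3, and others were not. On wild type array 3 the mean log2 signal of 10 fibroblast markers was 8.93, against 9.57 and 9.55 on the other wild type arrays and 9.71 to 9.83 on the knockout arrays. That array was the lowest for 8 of the 10. The mean of 12 macrophage and monocyte markers was 6.87 there, against 7.15 and 7.32 on the other wild type arrays and 7.39 to 7.53 in knockout hearts, and it was the lowest array for 10 of the 12. The same array had an S phase mean of 4.99, against 5.33 and 5.54 in the other wild type hearts and 5.44 to 5.57 in knockout hearts. Means of 10 endothelial markers (7.87 to 7.91 in wild type, 7.77 to 8.02 in knockout) did not set it apart. Cardiomyocyte markers were at 12.57 to 12.71 in wild type hearts and 12.42 to 12.51 in knockout hearts. All 13 had a negative difference, and 0 passed. In 8 of the 13 (61.5%) all knockout arrays lay below all wild type arrays, against 9.38% of all genes. Against wild type, 9 of 10 fibroblast markers were positive with 1 past the threshold, Col3a1, and 9 of 12 macrophage and monocyte markers were positive with 0 past it. Of all genes, 49.4% were positive and 0.322% rose past the threshold. T, NK and B cell markers had means of 4.06 to 4.22 in wild type and 3.98 to 4.11 in knockout hearts. The part that the mix of cells has in the cell cycle values was not tested.

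**Figure D4:**
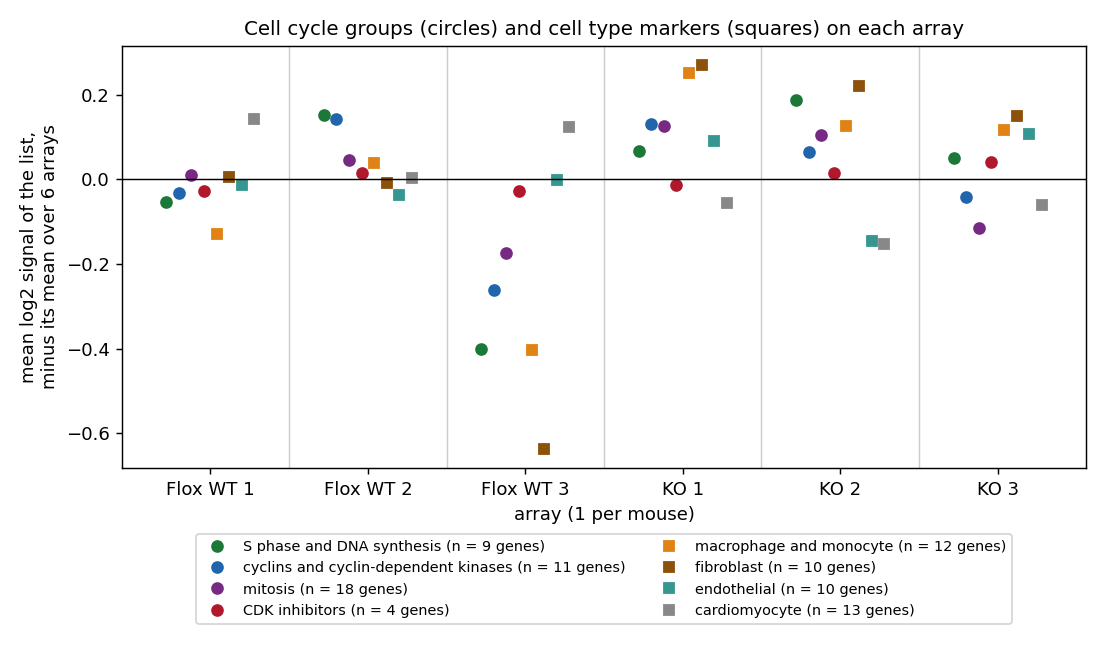
Mean log2 signal of the 4 cell cycle groups (circles) and 4 marker lists (squares) on each array, minus the mean of that list over the 6 arrays. On wild type array 3 the S phase genes, cyclins and CDKs, mitosis genes, macrophage and fibroblast markers all lie below 0, while CDK inhibitors and endothelial markers lie near 0 and cardiomyocyte markers above it.

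Beyond the members, 79 of 82 other cell cycle genes in 4 further lists were measured. Of these, 2 rose and 0 fell, where 0.322% and 0.227% of all genes did. Both belong to the list of the p53 pathway and other inhibitors (18 measured). Gadd45g, a growth arrest and DNA damage gene, was at 6.19, 6.26 and 6.23 in wild type hearts and at 7.59, 7.20 and 7.24 in knockout hearts. The groups were far apart, and it rose by 1.11 (SE 0.12, 2.16-fold, limma adjusted p = 0.00485), past the threshold in all 16 alternatives. Btg2, an antiproliferative gene that also responds early to growth signals and stress, was at 7.88, 7.60 and 7.91 against 9.20, 8.84 and 8.64. It rose by 1.10 (SE 0.15, 2.14-fold, limma adjusted p = 0.0179), and lost its call without wild type array 1 (adjusted p = 0.0541), wild type array 2 (0.0719) or knockout array 2 (0.0991). A dimmer probe set of Btg2 was at 0.81 (adjusted p = 0.0820). Gadd45a, the relative of Gadd45g that p53 controls, was at -0.56 (adjusted p = 0.357), so the list did not move as one, and its median was 0.07.

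Cdkn1a, Gadd45g and Btg2 were higher in the knockout hearts, and so was the mean of heat shock genes, which can mark tissue handling. Their mean over 11 genes was 9.05 to 9.20 in wild type hearts and 9.54 to 9.83 in knockout hearts, 9 of 11 were positive, and Hspa1a and Hspa1b, near-identical genes whose probe sets may read each other, rose past the threshold. These 2 carried most of the shift in the mean, at 2.20 and 2.33, while the median of the 11 was 0.27. Hspd1 was lower in every knockout heart (-0.20), and Bag3 was at -0.19 with overlap. The part of the heat shock genes in the higher growth arrest genes was not tested.

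In the list of E2F, RB and DREAM regulators, 0 of 17 passed and the median was -0.004. Myc, a transcription factor that drives growth, was at 4.88, 4.61 and 4.52 in wild type hearts and at 5.56, 5.24 and 5.34 in knockout hearts. The groups did not overlap, and the difference of 0.71 (SE 0.13) just missed the threshold (limma adjusted p = 0.0539). It passed in 4 of 16 alternatives, over which the adjusted p ranged from 0.0400 to 0.415. Rbl2, the pocket protein p130 of resting cells, was at -0.23 and E2f8, a repressor of E2F targets, at -0.22. Neither passed. Of 18 other replication genes 0 passed (median 0.06), with the licensing genes Cdt1 at 0.40, Mcm4 at 0.29 and Cdc6 at 0.21. Wild type array 3 was the lowest array for all 3, and without it they were at 0.16, 0.03 and 0.04. Of 26 other genes of mitosis 0 passed (median 0.12). The condensin genes Smc2 and Ncapg were at 0.55 (limma adjusted p = 0.227) and 0.24, with all knockout arrays above all wild type arrays, and the mitotic kinase gene Pbk was at 0.43. Without wild type array 3, Smc2 was at 0.36 and Pbk at 0.22. Over the mean of the probe sets of each gene Smc2 was at 0.18 and Ncapg at -0.006.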

How the data were processed

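Hearts of 6 mice were hybridised to 1 Affymetrix array each, from 400 ng of RNA. The authors deposited log2 signal values. Per the submitters' processing notes RMA and limma were used. Versions were not given in the sources used here. Quantile normalization in RMA makes the distributions of the arrays alike, so shifts common to all probe sets are removed. Differences of dim probe sets are also compressed in RMA values. Of 38208 rows, 13 controls were left out. GEO's platform annotation gave 34325 of the other 38195 a single gene symbol. No sequencing depth applies, and 3 arrays in a group set the precision.

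Both genotypes were compared over all 38195 probe sets in limma 3.58.1 (R 4.3.3; lmFit, eBayes, two-sided, Benjamini-Hochberg, threshold 0.05). The code was tested on simulated data. Differences are log2, knockout minus wild type, with n = 3 each. The text names every measured member and, of 4 further lists, genes past the threshold and the 3 with the smallest p. No set test was run. Members, lists and alternatives were chosen with earlier results of these data known. Deviations from the group means had correlations of 0.06, 0.14 and 0.02 between arrays of equal replicate number. Between arrays of unequal number they ran from -0.144 to 0.075. Such small values cannot settle whether arrays were paired, and the labels state no pairing, so none was assumed.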

Additional observations from a re-analysis of the deposited data

How the results depend on the processing

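Members past the threshold at the main probe set numbered 0 under every variance prior, weighting, normalization, filter and left-out array tried, and 5 at an unadjusted p under 0.05. With the mean over a gene's probe sets, Cdkn1a passed. Of 665 member values under the alternatives, 49 changed sign, none of them past the threshold in either fit, and 21 of 42 members kept their sign throughout. The count of probe sets called, 161, was 102 with a single probe set per gene, 38 to 86 with 1 array left out, and 29 without both knockout array 1 and wild type array 3. Fewer probe sets or arrays entered these fits. The median of the CDK inhibitors, 0.014, ranged from -0.069 to 0.097 with 1 array left out and was -0.075 without both arrays. With the replicate block 168 probe sets were called and 0 members passed at the main probe set. Unadjusted limma p fell from 0.0790 to 0.0126 for Ccna2, 0.0179 to 0.00259 for Birc5 and 0.106 to 0.0292 for Mki67. It rose from 0.0481 to 0.0574 for Aurka. Under this block Myc passed (adjusted p = 0.0400) and the second probe set of Cdkn1a lost its call (0.0607). That probe set was at 0.0558 after a second quantile normalization and at 0.164 without both arrays. Btg2 and Tmbim1 lost their calls without both arrays (adjusted p = 0.0854 and 0.0607), and Tmbim1 without knockout array 2 (0.0512).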
